A study of Homo sapiens with 8 samples.

Results

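The transcripts of 39 interferon-stimulated genes were followed in HepG2, a line derived from a human liver tumour, after treatment with benzo[a]pyrene (BaP) or with solvent alone. The members were taken by gene symbol from a list of named genes, and all 39 were found among the 49733 gene IDs of the deposited tables. BaP is a polycyclic aromatic hydrocarbon that binds the aryl hydrocarbon receptor and is oxidised in cells to metabolites that form DNA adducts. Cells at 80% confluence received 2 µM BaP for 12 h, 2 µM BaP for 24 h, or vehicle (0.5% DMSO) for 12 h or 24 h, with 2 biological replicates per group from separate experiments. All 8 libraries were made from poly-A RNA of this 1 line, so no other cell source was sampled. The comparison asks which transcripts differ between exposed cells and solvent-treated cells at each time.

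Interferons are secreted cytokines that bind receptors coupled to JAK kinases, which phosphorylate STAT proteins. STAT2 and IRF9 act in a complex called ISGF3, which binds the interferon-stimulated response element (ISRE), and a second element, the gamma-activated site (GAS), is bound by STAT dimers. The genes switched on in this way encode proteins that sense viral RNA, block translation or entry of viruses, tag proteins with ISG15 and present antigen, and hepatocytes respond to both type I and type III interferons.

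Many of the members' promoters hold letters that match an ISRE or a GAS, and stretches with such matches are shown for IFI6, TRIM21, ISG20, PARP14 and IRF9, each called with BaP in a comparison below. Promoter sequences came from RefSeq (build GRCh38.p14) and ran from 250 bases before to 50 bases after a gene's start, taking the first start listed per gene. The ISRE core was searched as GAAA, any 2 bases and GAAA, and the GAS as TTCNNNGAA, on both strands. The lines below give the stretch around the matches, 5′ to 3′ on the gene's own strand, with the matching bases in capitals.
IFI6 (chr1:27672261-27672363, minus strand): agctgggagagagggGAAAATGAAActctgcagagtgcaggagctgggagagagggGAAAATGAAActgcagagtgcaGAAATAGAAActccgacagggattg
TRIM21 (chr11:4393655-4393700, minus strand): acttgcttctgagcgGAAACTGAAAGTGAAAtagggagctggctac
ISG20 (chr15:88638932-88638971, plus strand): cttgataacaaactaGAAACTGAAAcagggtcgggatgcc
PARP14 (chr3:122680784-122680834, plus strand): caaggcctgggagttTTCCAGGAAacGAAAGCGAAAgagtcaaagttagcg
IRF9 (chr14:24161187-24161225, plus strand): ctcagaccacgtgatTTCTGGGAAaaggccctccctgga
IFI6 had 3 ISRE cores and TRIM21 had 2, which overlap each other. ISG20 had 1 ISRE core, PARP14 had 1 ISRE core and 1 GAS that do not overlap, and IRF9 had 1 GAS. Of the 31 members with a promoter in the table, 20 (64.5%) held an ISRE core, against 3.65% of all 27305 promoters. A GAS was found in 9 of the 31 (29%), against 7.88% of all promoters. The core bound by the aryl hydrocarbon receptor, GCGTG on either strand, was found in 5 of the 31 members (16.1%) and in none of the 6 called with BaP, against 36.3% of all promoters and 50.3% of the promoters of genes tested. A match describes the letters of the promoter only, and the interferon response of these genes is the reason they are on the list. Promoters of GBP2, IFIT2, IFITM2, IRF7, OAS2, OASL, UBA7 and USP18 were not analysed here.

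The deposited RSEM counts, which are estimated from reads shared between transcripts, summed to between 2592272 and 16533490 per library. The shallowest was BaP 24 h replicate 1 and the deepest BaP 24 h replicate 2. CYP1A1, the aryl hydrocarbon receptor's best-known target, was higher with BaP by 7.66 ± 0.24 at 12 h (log2 fold change ± SE; adjusted p = 1.3e-10) and by 7.74 ± 0.28 at 24 h (adjusted p = 9.6e-10). Hepatocyte markers summed to between 18992 and 33617 CPM (read counts scaled to a common depth) in every library, while the leukocyte genes CD3E and CLEC4C and the fibroblast gene DCN had no count in any. LYZ, listed among the leukocyte markers, was at 509 to 949 CPM. In a bulk sample, fewer cells with a transcript and less of it per cell cannot be told apart.

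Most members were expressed at a low level. On a per-length scale (TPM, a gene's share of all transcript molecules, made from the authors' fractions), 2 of the 39 averaged over 100, 7 lay between 10 and 100, 17 lay between 1 and 10, and 13 were under 1. IFITM3 and IFITM2, membrane proteins that block fusion of viruses in endosomes, stood at 545 and 220 TPM and together made up 52.4% of the members' summed mean CPM. BST2 (tetherin, which holds budding virus at the cell surface) averaged 55.4 TPM and the ubiquitin-like protein ISG15 averaged 41.4 TPM. IFI44, IFI44L, IFIT2, OASL, IRF7, DDX60, HERC5, CMPK2 and RSAD2 had only 2 to 30 counts each over the 8 libraries. These 9 failed the filter on low counts and were not tested, and the statements on fold changes below are on the other 30. In GENCODE 29 the members spanned from 1.77 kb (IFITM1) to 103 kb (DDX60).

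**Figure D1:**
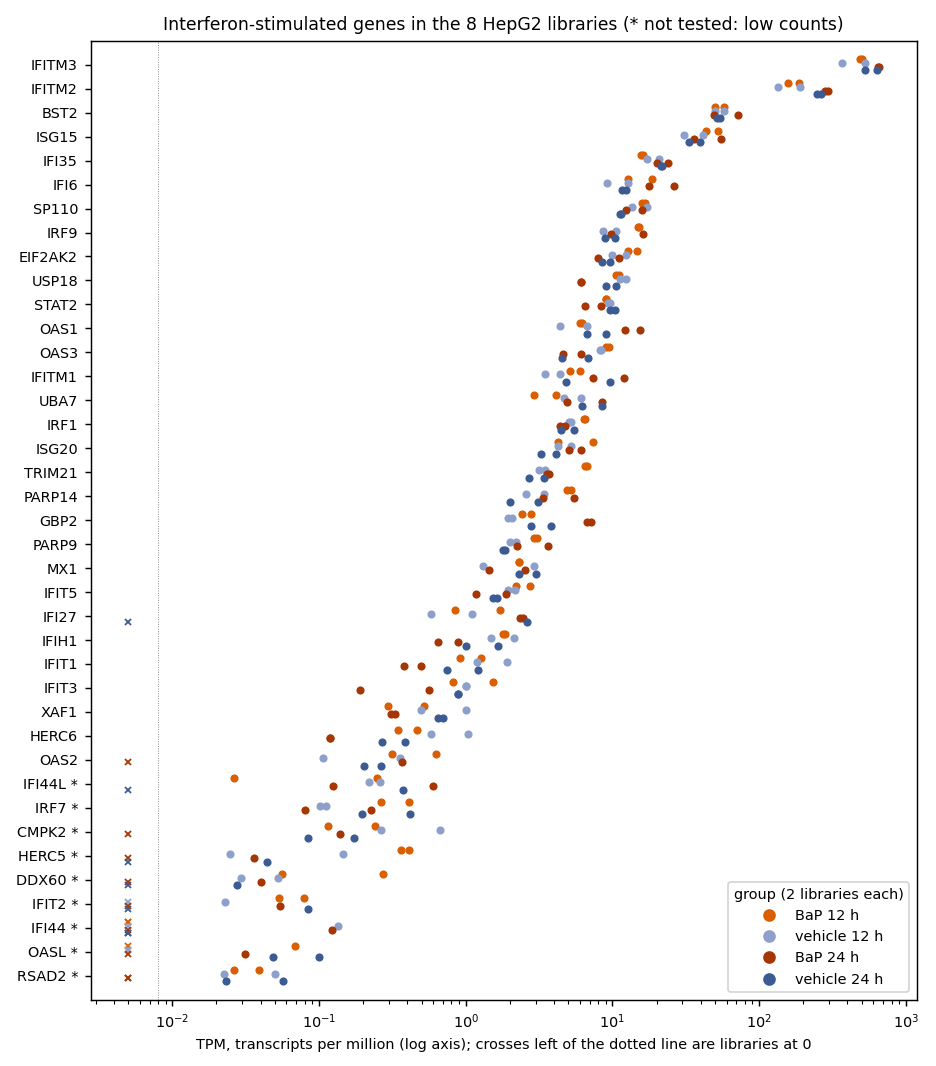
Level of each member in each library, in TPM on a log axis, with genes ordered by their mean. Points are single libraries coloured by group, crosses at the left are libraries at 0, and an asterisk marks the 9 members not tested; IFITM3 (mean 545 TPM) and IFITM2 (mean 220 TPM) stand above all others.

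After 12 h of BaP, 3 members were higher than in vehicle and none was lower: TRIM21, IRF9 and PARP14, with rises of 1.49-fold to 1.93-fold. They were 3 of 30 tested members, against 3.41% of the 14746 genes tested that were called higher, 4.84% called lower and 8.25% called in either direction, by edgeR's quasi-likelihood test at an adjusted p under 0.05. At 10% called in either direction, the members stood near that background. The median log2 fold change was 0.12 over the 30 members and 0.02 over all genes tested. An unadjusted p under 0.05 was reached by 4 of the 30 members, and by 2892 of the 14746 genes tested.

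TRIM21 (ENSG00000132109), a ubiquitin ligase that binds antibody on incoming virus inside the cell, was at 10.1 and 10.2 CPM in the BaP 12 h libraries, against 4.94 and 5.59 CPM in the vehicle 12 h libraries. Both exposed libraries lay well above both vehicle libraries and close to each other. The difference was 0.95 ± 0.21 on the log2 scale (n = 2 libraries per group; adjusted p = 0.0082). IRF9 (ENSG00000213928), the DNA-binding subunit of ISGF3, was at 22.9 and 22.1 CPM with BaP 12 h, against 15.4 and 13.5 CPM with vehicle 12 h. The groups did not overlap, and the log2 difference was 0.64 ± 0.16 (adjusted p = 0.017). PARP14 (ENSG00000173193), an ADP-ribosyltransferase, was at 24.3 and 26.5 CPM with BaP 12 h, against 13.9 and 20.1 CPM with vehicle 12 h. Here the vehicle libraries were farther apart than the exposed ones, though both lay below them, and the log2 difference was 0.58 ± 0.17 (adjusted p = 0.045).

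Whether these 3 members passed depended on the test and on single libraries. Over the 14 alternative fits the log2 difference ran from 0.87 to 1.02 for TRIM21 and from 0.52 to 0.74 for IRF9. That of PARP14 ran from 0.34 to 0.86. DESeq2's Wald test called none of the 3, and 0 members lower (adjusted p = 0.072 for TRIM21, 0.079 for IRF9 and 0.14 for PARP14). Over all genes tested, DESeq2 called 289 higher at 12 h, against 503 by edgeR. A fit without a 12 h library leaves its group with a single library, and fewer of all genes were called there too. Without BaP 12 h replicate 1 or replicate 2 none of the 3 passed (adjusted p of 0.069 to 0.16 and of 0.086 to 0.31); without vehicle 12 h replicate 1 only IRF9 passed (TRIM21 at 0.054, PARP14 at 0.31, its log2 difference 0.34); without vehicle 12 h replicate 2 IRF9 did not (0.12); and without vehicle 24 h replicate 1 or 2 PARP14 did not (0.069 and 0.071).

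After 24 h of BaP, 3 other members were higher and none was lower: OAS1, IFI6 and ISG20, with rises of 1.81-fold to 1.89-fold. They were 3 of 30 tested members, or 10% called in either direction, where 3.11% of all genes tested were called higher, 2.2% lower and 5.3% in either direction. Those shares moved with single libraries: with all libraries 458 genes were called higher and 324 lower at 24 h. Leaving out BaP 24 h replicate 1 gave 1230 higher and 726 lower, and leaving out replicate 2 gave 167 higher and 109 lower. Dropping vehicle 24 h replicate 1 left 95 higher and 74 lower, and dropping replicate 2 left 144 higher and 92 lower. The median log2 fold change was 0.18 over the members and 0.01 over all genes tested. The members' median depended on single libraries too. It fell to -0.01 once BaP 24 h replicate 2 was dropped, where that of all genes was -0.03. Dropping the second vehicle library of that time gave 0.08. Dropping the first BaP or the first vehicle library of that time gave 0.16 and 0.17. With all libraries, an unadjusted p under 0.05 was reached by 11 of the 30 members, and by 2948 of the 14746 genes tested. Of the 11 members, 8 had higher and 3 had lower values, the 3 being STAT2, IFIH1 and USP18.

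OAS1 (ENSG00000089127), which makes the 2-5A that activates RNase L when it binds double-stranded RNA, was at 18.0 and 18.5 CPM in the BaP 24 h libraries, against 8.32 and 11.8 CPM in the vehicle 24 h libraries. The exposed libraries matched closely and both lay above the vehicle libraries, which differed from each other. The log2 difference was 0.91 ± 0.22 (n = 2 libraries per group; adjusted p = 0.024). IFI6 (ENSG00000126709), a small membrane protein, was at 16.1 and 13.2 CPM with BaP 24 h, against 7.73 and 7.88 CPM with vehicle 24 h. The groups were clearly apart, with a log2 difference of 0.86 ± 0.23 (adjusted p = 0.038). ISG20 (ENSG00000172183), an exonuclease that degrades single-stranded RNA, was at 7.13 and 11.6 CPM with BaP 24 h, against 5.35 and 5.44 CPM with vehicle 24 h. The deeper exposed library was far above the shallower one, and the log2 difference was 0.92 ± 0.26 (adjusted p = 0.047).

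DESeq2's Wald test again called none of the 3, and 0 members lower (adjusted p = 0.091 for OAS1, 0.12 for IFI6 and 0.24 for ISG20), nor did any pass without BaP 24 h replicate 2 (0.19, 0.098 and 0.74, with ISG20's log2 difference at 0.40) or without vehicle 24 h replicate 1 (0.36, 0.27 and 0.31). OAS1 alone passed without vehicle 24 h replicate 2 (0.041, against 0.18 for IFI6 and 0.21 for ISG20) and when only the 24 h libraries were fitted (0.045, against 0.054 and 0.085); ISG20 also missed without BaP 12 h replicate 1 or 2 (0.074 and 0.072).

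**Figure D2:**
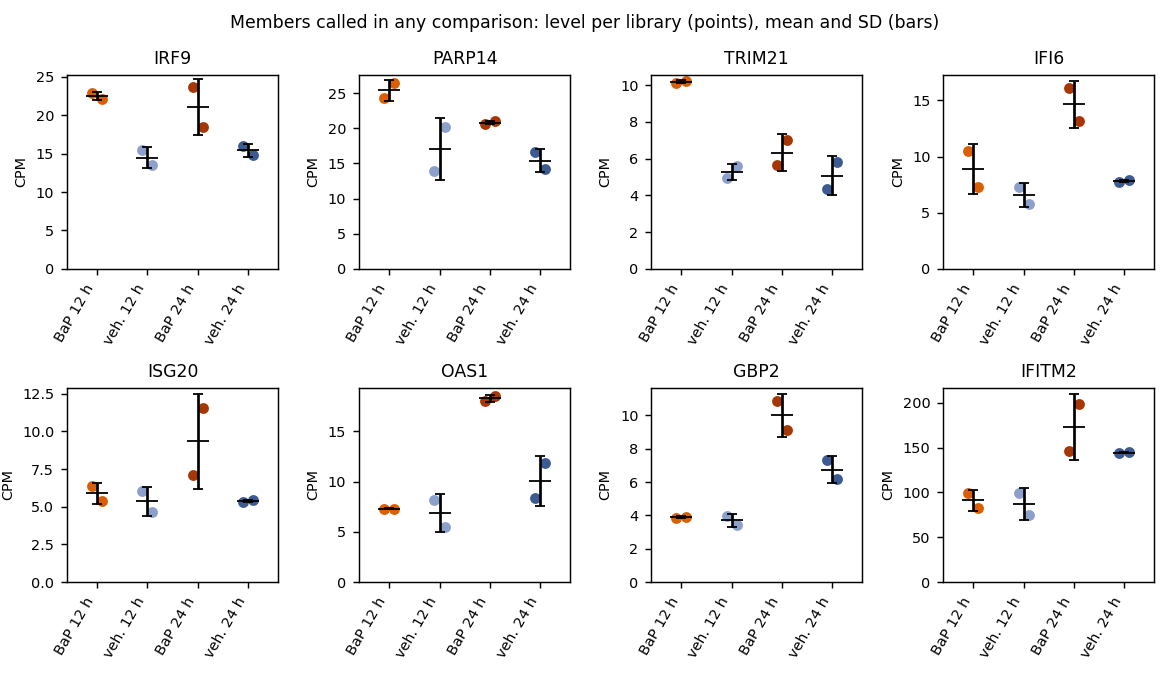
CPM of the 8 members that passed the test in any comparison, by group; points are the 2 libraries, and the bars give their mean and SD. TRIM21, IRF9 and PARP14 lie above vehicle at 12 h, OAS1, IFI6 and ISG20 at 24 h, and GBP2 and IFITM2 are higher in the 24 h than in the 12 h vehicle libraries.

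Transcript shares of the 6 called members, as RSEM divided the counts, are given without a test. TRIM21 has 1 listed transcript, and 1 transcript held 99.8% of the counts of IRF9 and 92.7% of those of ISG20 over all libraries. The leading transcript of OAS1 held 90.7% and 71.5% of its counts with BaP 24 h, against 80.4% and 80.9% with vehicle 24 h, so the groups overlapped. That of PARP14 held 38.4% and 61.6% with BaP 12 h, against 29% and 19.2% with vehicle 12 h, where the exposed libraries were higher. That of IFI6 held 100% and 65.3% with BaP 24 h, against 77.9% and 21.6% with vehicle 24 h, a spread between replicates as wide as that between groups.

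No member was called at both times, which is not itself a difference between the times. The response to BaP at 24 h minus that at 12 h was tested directly, and none of the 30 members passed it by edgeR (0 also by DESeq2), against 0.543% of all genes tested. At an unadjusted p under 0.05 there were 2 of the 30 members, where 1403 of the 14746 genes tested reached it. They were OAS1, with a difference of 0.82 ± 0.32 on the log2 scale (adjusted p = 0.38), and ISG20, with 0.80 ± 0.35 (adjusted p = 0.48). OAS1 was at 7.32 and 7.31 CPM with BaP 12 h, against 8.19 and 5.52 CPM with vehicle 12 h, so the 12 h groups overlapped. TRIM21 was at 5.63 and 7.02 CPM with BaP 24 h, against 4.33 and 5.81 CPM with vehicle 24 h, and these groups overlapped as well. IRF9 and PARP14, by contrast, did not overlap at either time: at 24 h IRF9 was at 23.6 and 18.5 CPM with BaP, against 16.0 and 14.8 CPM with vehicle, and PARP14 was at 20.6 and 21.0 CPM with BaP, against 16.6 and 14.3 CPM with vehicle. Their 24 h log2 differences were 0.38 ± 0.17 (adjusted p = 0.24) and 0.42 ± 0.19 (adjusted p = 0.23).

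Groups that do not overlap were common among all genes with 2 libraries a side. At 12 h, 11 tested members lay wholly above vehicle, 3 wholly below and 16 overlapped, where 25.4% of all genes tested lay above, 23.9% below and 49.3% did not overlap in either direction. At 24 h, 10 lay above, 9 below and 11 overlapped, where 23.2% of all genes tested lay above, 24% below and 47.2% did not overlap in either direction. The split between above and below was therefore uneven at 12 h and nearly even at 24 h, and it was not tested over the list.

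**Figure D3:**
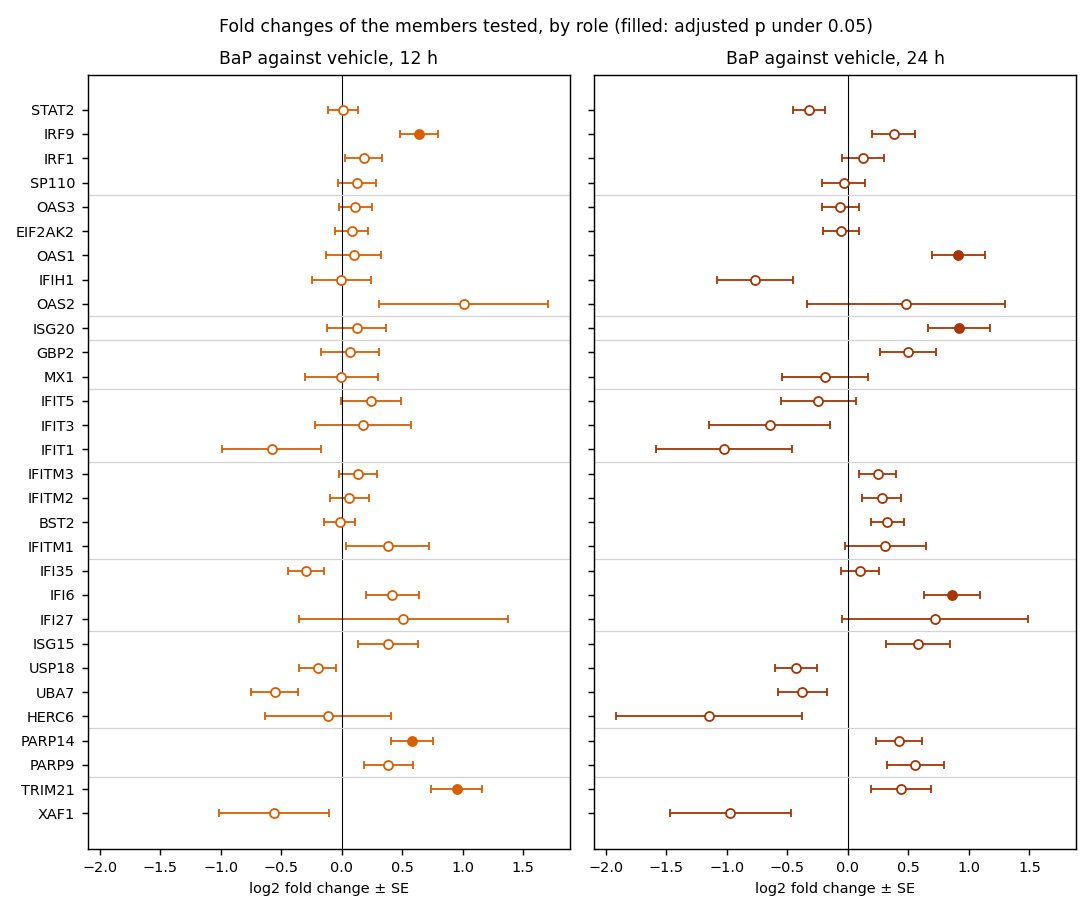
Log2 fold change of BaP against vehicle, with its SE, for the 30 members tested at 12 h (left) and 24 h (right), grouped by role from transcription factors at the top to TRIM21 and XAF1 at the bottom. Filled points passed an adjusted p under 0.05: IRF9, PARP14 and TRIM21 at 12 h and OAS1, ISG20 and IFI6 at 24 h.

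Among the transcription factors, STAT2, a subunit of ISGF3 beside IRF9, was not called. It was at 34.2 and 33.8 CPM with BaP 12 h, against 32.1 and 35.4 CPM with vehicle 12 h, and at 31.1 and 29.1 CPM with BaP 24 h, against 37.4 and 37.1 CPM with vehicle 24 h. The 12 h groups overlapped, while at 24 h both exposed libraries lay below vehicle without passing the test (log2 difference of -0.32 ± 0.14; adjusted p = 0.19). IRF1 and SP110, a transcription factor and a nuclear body protein, had log2 differences between -0.04 and 0.18 at the 2 times.

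Of the 5 RNA sensors and their effectors that were tested, OAS1 alone was called. OAS3, a larger synthetase of 2-5A, was at 52.5 and 53.7 CPM with BaP 12 h, against 48.0 and 50.4 CPM with vehicle 12 h, and at 34.5 and 33.5 CPM with BaP 24 h, against 40.3 and 29.1 CPM with vehicle 24 h. Its log2 differences were 0.11 ± 0.14 and -0.06 ± 0.15 (adjusted p = 0.74 and 0.88), with 95% intervals of -0.17 to 0.40 and of -0.39 to 0.26. OAS1, its neighbour on chromosome 12, passed at 24 h, and the difference between the genes was not tested. EIF2AK2, the kinase PKR that stops translation on double-stranded RNA, was at 46.8 and 48.0 CPM with BaP 12 h, against 38.7 and 50.9 CPM with vehicle 12 h, and at 36.0 and 37.5 CPM with BaP 24 h, against 37.4 and 39.8 CPM with vehicle 24 h. Its groups overlapped at both times (adjusted p = 0.82 and 0.89). IFIH1, the cytosolic RNA sensor MDA5, was at 2.63 and 2.48 CPM with BaP 24 h, against 4.84 and 3.38 CPM with vehicle 24 h. Both exposed libraries lay below vehicle, and the log2 difference of -0.76 ± 0.31 did not pass (adjusted p = 0.18). OAS2 was under 2 CPM in all libraries, with wide errors at both times.

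The GTPases MX1 and GBP2, which act on viral nucleocapsids and on vacuoles that hold pathogens, were not called with BaP. MX1 was at 4.18 and 2.62 CPM with BaP 12 h, against 2.80 and 3.84 CPM with vehicle 12 h, and at 2.25 and 2.94 CPM with BaP 24 h, against 3.40 and 2.81 CPM with vehicle 24 h. The groups overlapped at both times, and at this depth the 95% interval of its 24 h log2 difference ran from -0.95 to 0.56. GBP2 was at 10.9 and 9.10 CPM with BaP 24 h, against 7.30 and 6.19 CPM with vehicle 24 h, a difference of 0.49 ± 0.23 that did not pass (adjusted p = 0.24).

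The IFIT genes, whose proteins bind viral RNA ends or translation factors, had few counts and none was called. IFIT5 was at 4.53 and 4.70 CPM with BaP 12 h, against 3.47 and 4.33 CPM with vehicle 12 h, and at 3.00 and 2.68 CPM with BaP 24 h, against 3.31 and 3.19 CPM with vehicle 24 h. IFIT3 was at 3.25 and 1.69 CPM with BaP 12 h, against 2.07 and 2.17 CPM with vehicle 12 h, and at 0.375 and 1.47 CPM with BaP 24 h, against 1.87 and 2.06 CPM with vehicle 24 h. At 24 h both genes, and IFIT1 with them, lay wholly below vehicle, with log2 differences of -0.24 ± 0.31, -0.65 ± 0.50 and -1.03 ± 0.56 (adjusted p = 0.72, 0.51 and 0.33). In BaP 24 h replicate 1, the shallowest library, IFIT5 had 8 counts, IFIT3 had 1 and IFIT1 had 2. IFIT1 and IFIT3 overlap LIPA on the opposite strand in GENCODE 29, by the genes' spans. The counting is not stated to use strand, and whether reads were shared between these genes was not tested.

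None of BST2, IFITM1, IFITM2 and IFITM3, which act at membranes, was called with BaP. IFITM3 was at 243 and 230 CPM with BaP 12 h, against 247 and 184 CPM with vehicle 12 h, and at 307 and 391 CPM with BaP 24 h, against 315 and 276 CPM with vehicle 24 h. Its groups overlapped at both times, and its log2 differences were 0.13 ± 0.15 and 0.25 ± 0.16 (adjusted p = 0.72 and 0.40). IFITM2 was at 99.4 and 82.8 CPM with BaP 12 h, against 99.7 and 74.6 CPM with vehicle 12 h, and at 147 and 199 CPM with BaP 24 h, against 144 and 145 CPM with vehicle 24 h. The log2 differences were 0.06 ± 0.16 and 0.28 ± 0.16 (adjusted p = 0.90 and 0.37). IFITM1, IFITM2 and IFITM3 are paralogs, and IFITM1 and IFITM2 overlap on the same strand. RSEM may therefore divide shared reads between them with error, and the level of each is uncertain. BST2 was at 46.5 and 42.3 CPM with BaP 24 h, against 34.5 and 35.6 CPM with vehicle 24 h, and this gap of 0.33 ± 0.13 did not pass (adjusted p = 0.18).

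IFI35, a cytosolic protein that binds NMI, had values of opposite sign at the 2 times and no call. It was at 14.8 and 15.1 CPM with BaP 12 h, against 19.7 and 17.0 CPM with vehicle 12 h, and at 22.1 and 23.8 CPM with BaP 24 h, against 21.1 and 22.3 CPM with vehicle 24 h. The log2 differences were -0.30 ± 0.15 and 0.10 ± 0.16 (adjusted p = 0.30 and 0.77). IFI6, called at 24 h, had 10.5 and 7.31 CPM with BaP 12 h, against 7.30 and 5.80 CPM with vehicle 12 h, where the groups nearly touched (log2 difference of 0.42 ± 0.22; adjusted p = 0.31). IFI27 had 62 counts in all and no usable precision.

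None of the 4 tested genes of the ISG15 conjugation system was called with BaP, and HERC5 had too few counts to test. ISG15 itself was at 27.0 and 22.2 CPM with BaP 12 h, against 21.0 and 16.6 CPM with vehicle 12 h, and at 18.0 and 35.7 CPM with BaP 24 h, against 17.7 and 22.3 CPM with vehicle 24 h. Its exposed 24 h libraries stood far apart, the shallow one among the vehicle libraries and the deep one above them, and the log2 difference was 0.58 ± 0.26 (adjusted p = 0.25). Without the shallow library, BaP 24 h replicate 1, ISG15 passed (0.86; adjusted p = 0.0028), as it did with no filter on low counts (adjusted p = 0.036). UBA7, the enzyme that activates ISG15, was at 5.58 and 6.77 CPM with BaP 12 h, against 9.81 and 8.52 CPM with vehicle 12 h, the nearest of any member to a call in the lower direction at that time (log2 difference of -0.55 ± 0.19; adjusted p = 0.098). At 24 h UBA7 was at 8.63 and 8.90 CPM with BaP, against 11.2 and 11.8 CPM with vehicle. It lay below vehicle there too, without passing by edgeR (log2 difference of -0.38 ± 0.20, adjusted p = 0.32). USP18, which removes ISG15 and blocks interferon receptor signalling, was at 17.0 and 17.9 CPM with BaP 12 h, against 19.1 and 21.0 CPM with vehicle 12 h, and at 10.5 and 13.4 CPM with BaP 24 h, against 16.3 and 17.8 CPM with vehicle 24 h. Both exposed pairs lay below vehicle, and neither passed (adjusted p = 0.55 and 0.18). HERC6 had 74 counts in all and was not called.

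PARP9, the partner of PARP14 in macrophages and a binder of DTX3L, was at 10.6 and 10.5 CPM with BaP 12 h, against 7.23 and 8.94 CPM with vehicle 12 h, and at 12.4 and 8.23 CPM with BaP 24 h, against 6.54 and 6.19 CPM with vehicle 24 h. Both exposed pairs lay above vehicle, with log2 differences of 0.38 ± 0.20 and 0.56 ± 0.24 (adjusted p = 0.32 and 0.20). PARP9 overlaps DTX3L on the opposite strand by span, and whether reads were shared was not tested. XAF1, a pro-apoptotic partner of XIAP, was at 1.51 and 0.770 CPM with BaP 12 h, against 1.77 and 1.47 CPM with vehicle 12 h, and at 0.750 and 1.14 CPM with BaP 24 h, against 1.95 and 2.25 CPM with vehicle 24 h. The 24 h groups did not overlap, yet XAF1 had 122 counts in all and 2 in BaP 24 h replicate 1. The log2 difference of -0.97 ± 0.50 did not pass (adjusted p = 0.30).

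No interferon ligand was detected. All 21 interferon genes looked up (types I, II and III) had 0 counts in all 8 libraries, which allows a level of up to 0.201 to 1.13 CPM per library (3 counts; counting error only). The receptor and JAK-STAT genes were present and none of 11 was called at either time by edgeR or DESeq2, with 2 at an unadjusted p under 0.05 at 12 h and 1 at 24 h. None of 6 negative regulators, SOCS1 and SOCS3 among them, was called at either time by either tool, nor had any an unadjusted p under 0.05. Over all 14746 genes tested, 2892 reached that unadjusted p at 12 h and 2948 at 24 h.

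Of 10 tested sensors and adaptors that induce interferon, 1 was called higher at 12 h and 2 at 24 h. Of all genes tested, 3.41% and 3.11% were called higher. TBK1, the kinase that phosphorylates IRF3, was at 15.1 and 14.3 CPM with BaP 12 h, against 8.26 and 8.66 CPM with vehicle 12 h (log2 difference of 0.79 ± 0.17; adjusted p = 0.0082). At 24 h TBK1 was at 10.9 and 10.7 CPM with BaP, against 9.51 and 12.4 CPM with vehicle, so those groups overlapped. STING1, the receptor for cyclic GMP-AMP made by CGAS on cytosolic DNA, was at 11.6 and 9.90 CPM with BaP 24 h, against 6.03 and 4.69 CPM with vehicle 24 h (0.92 ± 0.25; adjusted p = 0.040). At 12 h STING1 was at 7.09 and 6.39 CPM with BaP, against 5.02 and 3.49 CPM with vehicle. Those groups did not overlap, and the log2 difference of 0.66 ± 0.24 did not pass by edgeR (adjusted p = 0.11). IRF3, the factor downstream of both, was at 56.6 and 79.4 CPM with BaP 24 h, against 45.4 and 43.5 CPM with vehicle 24 h (0.66 ± 0.16; adjusted p = 0.023). All 3 missed the threshold in some fits: TBK1 without BaP 12 h replicate 1 or 2 (0.093 and 0.064) and by DESeq2 (0.054), STING1 by DESeq2 (0.15), without any 1 of BaP 12 h replicates 1 and 2, BaP 24 h replicate 2 and vehicle 24 h replicates 1 and 2, and with the 24 h libraries alone (0.064 to 0.25), and IRF3 without BaP 24 h replicate 2 (0.43, with a log2 difference of 0.34), without vehicle 24 h replicate 1 or 2 (both 0.18) and with the 24 h libraries alone (0.065).

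Antigen presentation genes are induced by interferon gamma through IRF1 and NLRC5. They held the 1 call that passed in every alternative run, among the members' calls and the interferon pathway lists' calls with BaP. TAP1, a subunit of the peptide transporter into the endoplasmic reticulum, was at 72.7 and 71.1 CPM with BaP 12 h, against 44.2 and 40.5 CPM with vehicle 12 h. The exposed libraries lay far above vehicle, and the log2 difference of 0.76 ± 0.12 (adjusted p = 4.1e-04) passed in all 14 alternatives. At 24 h TAP1 was at 52.5 and 49.3 CPM with BaP, against 41.7 and 37.9 CPM with vehicle, and did not pass (0.34 ± 0.13; adjusted p = 0.14). HLA-E, a non-classical class I molecule, was at 85.6 and 79.2 CPM with BaP 12 h, against 63.0 and 57.5 CPM with vehicle 12 h (0.45 ± 0.12; adjusted p = 0.031). PSMB8, a catalytic subunit of the immunoproteasome, was at 22.9 and 31.0 CPM with BaP 24 h, against 18.4 and 17.4 CPM with vehicle 24 h (0.64 ± 0.16; adjusted p = 0.030). The calls were 2 of 17 (11.8%) at 12 h and 1 of 17 (5.88%) at 24 h, all of them higher. Of all genes tested, 3.41% and 3.11% were called higher, and 8.25% and 5.3% in either direction. Calls this few do not set the list apart from these shares. HLA genes share reads with their paralogs, and HLA-E missed the threshold by DESeq2 (0.060) and without any of the 12 h libraries (0.064 to 0.30), PSMB8 by DESeq2 (0.11) and in the same fits as STING1 (0.055 to 0.57; without BaP 24 h replicate 2 its log2 difference was 0.34).

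Of 24 further interferon-responsive genes tested, 1 (4.17%) was called at 12 h, and it was lower. Of all genes tested, 4.84% were called lower and 8.25% in either direction, and 1 gene does not set the list apart from these shares. SAMHD1, which hydrolyses the deoxynucleotides that viruses need, was at 46.3 and 45.6 CPM with BaP 12 h, against 57.9 and 68.5 CPM with vehicle 12 h (log2 difference of -0.46 ± 0.12; adjusted p = 0.029). It missed by DESeq2 (0.075) and without BaP 12 h replicate 1 (0.20) or 2 (0.19), vehicle 12 h replicate 2 (0.18) or vehicle 24 h replicate 1 or 2 (both 0.058). At 24 h SAMHD1 was at 39.0 and 34.2 CPM with BaP, against 50.3 and 46.7 CPM with vehicle. Both exposed libraries again lay below vehicle, and the log2 difference of -0.44 ± 0.14 did not pass by edgeR (adjusted p = 0.079). None of the 24 was called at 24 h by edgeR or DESeq2. An unadjusted p under 0.05 was reached by 4 of them, and by 2948 of the 14746 genes tested.

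**Figure D4:**
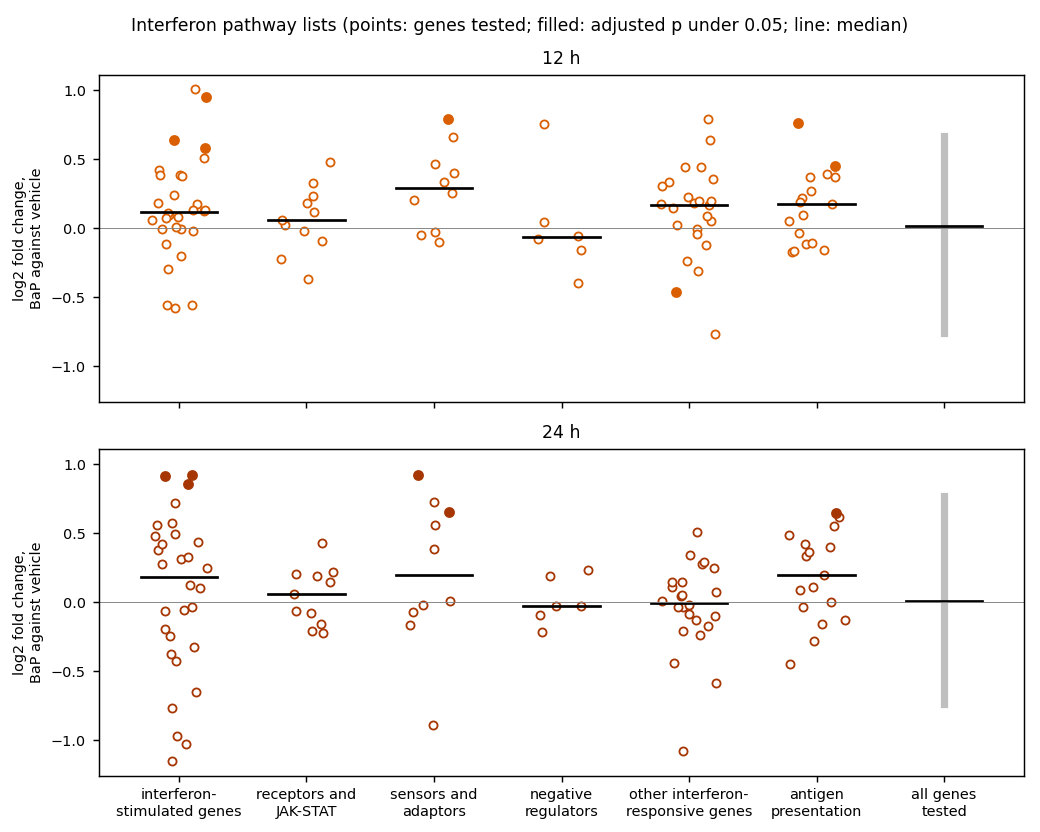
Log2 fold change of BaP against vehicle at 12 h (top) and 24 h (bottom) for the members and for 5 lists of interferon pathway genes; each point is a gene tested, filled where its adjusted p was under 0.05, and black lines are medians. The grey bar gives the 5th to 95th percentile of all genes tested, from -0.76 to 0.67 at 12 h and from -0.73 to 0.77 at 24 h, a range that holds most points of each list.

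The vehicle libraries were also compared over time. Between 24 h and 12 h of vehicle, 2 of 30 members were called, GBP2 and IFITM2, both higher at 24 h, where 3.28% of all genes tested were called in either direction, 2.27% higher and 1.01% lower. IFITM2 (ENSG00000185201) was at 144 and 145 CPM in the vehicle 24 h libraries, against 99.7 and 74.6 CPM in the vehicle 12 h libraries (log2 difference of 0.73 ± 0.16; adjusted p = 0.027). GBP2 (ENSG00000162645) was at 7.30 and 6.19 CPM with vehicle 24 h, against 3.98 and 3.42 CPM with vehicle 12 h (0.89 ± 0.23; adjusted p = 0.046). Both genes had all 24 h libraries above all 12 h libraries. Among the further interferon-responsive genes ZC3HAV1, the antiviral protein ZAP, was lower at 24 h (-0.52; adjusted p = 0.031); it falls outside the rule for naming genes and was chosen after its value was seen. IFITM2 missed without vehicle 12 h replicate 2 (0.18), vehicle 24 h replicate 1 (0.15) or 2 (0.21), and GBP2 without any library except the BaP 24 h ones (0.088 to 0.40), and DESeq2 gave GBP2 no adjusted p.

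By edgeR, 1 hepatocyte marker and 1 leukocyte marker were called with BaP at each time. The part of such marker genes in the members' values was not tested. Of the 3 leukocyte markers tested, 1 had a log2 fold change below 0 at 12 h and 2 had one at 24 h. APOB was lower at 12 h and 24 h (-0.81 ± 0.18 and -0.75 ± 0.18; adjusted p = 0.0097 and 0.025), the only gene of 8 hepatocyte markers called by edgeR at each time (DESeq2 called 1 lower at 12 h and 2 at 24 h), and the 8 together summed to 18992 to 24131 CPM in the BaP libraries, against 24876 to 33617 CPM in the vehicle libraries. CD14 was higher (1.04 ± 0.31 and 1.54 ± 0.32; adjusted p = 0.048 and 0.0096), at 2.79 to 7.13 CPM with BaP, against 1.47 to 2.25 CPM with vehicle, though DESeq2 called 0 leukocyte markers at either time. It was 1 of 3 leukocyte markers with enough counts to test of 8, while PTPRC, which marks all leukocytes, was at 0.188 CPM or less in every library. The 8 summed to 547 to 905 CPM in the BaP libraries, against 511 to 952 CPM in the vehicle libraries, and LYZ made up most of this sum in every library. The 5 fibroblast and endothelial markers that were found summed to 6.36 to 20.3 CPM in the BaP libraries, against 13.7 to 43.9 CPM in the vehicle libraries, and COL1A1 and CDH5, those tested, were not called.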

How the data were processed

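Poly-A RNA of 8 HepG2 libraries (4 groups of 2) was analysed from the gene-level and transcript-level tables. Per the submitters' processing notes, the authors used Bowtie 0.12.7, RSEM 1.1.7 and edgeR (no version given), with Ensembl release 58 as annotation, per the file names; no build is named in those sources. The deposited estimated counts are RSEM's expected counts, not normalized, and were rounded to whole numbers here. The deposited fractions, the authors' RSEM estimate of each gene's share of transcripts corrected for length, were scaled to TPM. Total counts ran from 2592272 to 16533490 per library, and low depth limits the precision of low genes in the comparisons that use the shallow libraries.

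IDs were named from a gene symbol table and GENCODE 29 (42296 of 49733). In R 4.3.3 with edgeR 4.0.16, genes passing filterByExpr (minimum count 10, minimum total 15; 14746 genes) were scaled by TMM and fitted over all 8 libraries with robust quasi-likelihood, 1 mean per group. Tests were two-sided, with Benjamini-Hochberg adjustment over all genes tested and a threshold of 0.05; the SE is the fold change divided by the square root of F. The procedure was tested on simulated counts. The 12 h and 24 h comparisons use different vehicle libraries. The labels call the libraries of a group independent experiments; with 2 per group, p-values rest on a spread shared across genes. The members and gene lists were chosen with earlier results of these data known. Values are given for every member called in any comparison and for the 2 with the highest mean CPM of each role, for others where a result turns on them, and for listed pathway genes called with BaP; no set test was run. Alternatives were DESeq2's size factors, no low-count filter, DESeq2 1.42.0, a replicate block, only the libraries of a comparison, RSEM's posterior mean counts, and leaving out each library. No protein sequence was analysed here, and some results are not reported here. The list symbols IKBKE and PECAM1 matched no ID.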

Additional observations from a re-analysis of the deposited data

How the results depend on the processing

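No member called in any comparison changed direction in any alternative run. With DESeq2's Wald test the members called higher with BaP numbered 0 at 12 h and 0 at 24 h, against 3 and 3, and those higher in vehicle at 24 h against 12 h numbered 1, against 2, with no adjusted p given for GBP2. Fitting only the libraries of a comparison left 1 member higher with BaP at 24 h. Leaving out each library in turn gave 0 to 3 members higher with BaP at 12 h, 0 to 4 at 24 h and 0 to 3 in vehicle over time, with the lone sample left in a group assumed to vary like the other groups; such fits have fewer degrees of freedom. In vehicle over time, 1 member (OAS3) was lower with no low-count filter, with only the vehicle libraries, and in the fits without 1 library (0 to 1), against 0. DESeq2's size factors and RSEM's posterior mean counts kept each count at its value. Over all genes, leaving out 1 library gave 174 to 724 higher and 250 to 969 lower with BaP at 12 h (503 and 713), 95 to 1230 and 74 to 726 at 24 h, and 81 to 589 and 6 to 423 in vehicle over time. DESeq2 called 289 higher with BaP at 12 h and 303 at 24 h, against 503 and 458; fits to the libraries of a comparison called 235 higher and 144 lower at 24 h (458 and 324) and 511 higher and 342 lower in vehicle over time (334 and 149); no filter on low counts called 559 lower at 24 h, 341 lower in vehicle over time, and 171 higher and 69 lower for the difference between the times (68 and 12). The replicate block left 3 members higher with BaP at 12 h, 2 at 24 h (ISG20 at adjusted p = 0.063) and 1 in vehicle over time (GBP2 at 0.052). The labels do not say that the numbers pair the samples. Across 7299 genes the replicate differences correlated at 0.424 between BaP 12 h and vehicle 12 h, and from -0.239 to 0.0644 between the other pairs of groups. Depth limits the 9 untested members and those with few counts, such as IFI27, OAS2, HERC6 and IFIT1.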
